A study of Paeonia lutea x Paeonia suffruticosa with 9 samples.

Results

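The transcripts described here are those of 2 sugar genes in buds of tree peony: ATVGT1, which encodes a transporter of glucose in the vacuole, and RPI2, which encodes a ribose-5-phosphate isomerase. They are 4 of the 137758 transcripts in the data, 2 for each gene, and they were taken from the study's list of 26 floral transcripts by their full identifiers. The list gives the Arabidopsis gene that each tree peony transcript matched best. The 2 transcripts of a gene are called copies below. Whether they are separate genes, alleles or isoforms is not given in the sources used here. The study put these transcripts on its list because it had found them differentially expressed in the same libraries, so the tests below are not independent evidence of their change.

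The vacuole is the main store of soluble sugar in a plant cell, and carriers in its membrane move glucose between this store and the cytosol. In Arabidopsis, AtVGT1 is one such carrier, and mutants that lack it flower late and germinate poorly. Ribose-5-phosphate isomerase converts ribulose-5-phosphate and ribose-5-phosphate into each other in the pentose phosphate pathway, which makes the sugar of nucleotides. Arabidopsis RPI2 is a cytosolic form of this enzyme, and its mutants also flower late.

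The study followed floral development in buds of the cultivar ‘High Noon’, a hybrid of Paeonia lutea and Paeonia suffruticosa that flowers more than once a year. The labels give the plants as 5 years old, the methods give a range of ages that ends there, and no treatment is named. From sections of parallel buds the study called stage I the vegetative meristem, stage II the floral meristem and stage III the stage of floral organs. A figure legend of the study places the differentiation of floral organs at stage II. The RNA came from buds with adjacent scales and leaves removed, and the names of meristems below stand for bud stages. Each stage had 3 RNA-seq libraries, called S1_1 to S1_3, S2_1 to S2_3 and S3_1 to S3_3 here. The study describes its replicates as biological and lists RNA quality for each library separately. The labels do not say whether the libraries of a stage came from separate plants. The p values therefore measure the spread between libraries, and whether it covers separate plants is not known.

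The libraries held 20065002 to 25195520 counted fragments, and 62148 transcripts had reads in all 9. Of 11 transcripts of floral identity genes on the study's list, 11 were higher in every stage III library than in every stage I library. The same held for 31.2% of the 65124 transcripts tested between these stages. The summed level of the 11 was 2.29 to 5.07 FPKM (fragment counts scaled for transcript length and library size) at stage I. It was 20.8 to 42.8 at stage II and 75.8 to 172 at stage III. This order goes with the labels of the stages, but the study had chosen these transcripts on the same libraries. The study reports a lower RNA integrity score and a lower mapping rate for every stage I library than for every later library. In comparisons with stage I, the part of these measures cannot be told apart from that of the stage. One library stood apart: the fragment length implied by its counts and FPKM was 253 bp in S1_3 and 285 to 296 bp in the other 8. Calls that changed without S1_3 are given with and without it, and so are the differences of the RPI2 copy ratio from stage I.

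The first copy of ATVGT1, c47156 (i2_LQ_HNbud_c47156/f1p3/2045), is a transcript of 2045 bp in the low-quality class of the long-read consensus, built from 1 full-length and 3 partial long reads. The second copy, c27914 (i1_HQ_HNbud_c27914/f7p7/1955), has 1955 bp, is in the high-quality class and rests on 7 full-length and 7 partial long reads. The expected counts of both copies were fractional in 9 of 9 libraries, because RSEM divides a read that fits several transcripts between them. Their sum was whole in 0 of 9 libraries too, so part of the reads was also divided with other transcripts. The first copy of RPI2, c33701 (i1_HQ_HNbud_c33701/f2p5/1226), has 1226 bp, is in the high-quality class and rests on 2 full-length and 5 partial long reads. Its count was whole, within 0.005, in 9 of 9 libraries. The second copy, c51781 (i1_LQ_HNbud_c51781/f2p3/1522), has 1522 bp, is in the low-quality class and rests on 2 full-length and 3 partial long reads. Its count was whole in 6 of 9 libraries. The level of an RPI2 copy thus depended little on how reads were divided, and that of an ATVGT1 copy did depend on it. For this reason the summed reads of the copies were tested as well.

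ATVGT1 was low in the vegetative meristem and higher in both floral stages. The level of c47156 was 4.85, 4.78 and 3.23 FPKM in S1_1, S1_2 and S1_3. At stage II it was 11.57, 9.03 and 8.74 FPKM, and at stage III 13.36, 13.86 and 12.54 FPKM. The 3 stages did not overlap, and the lowest stage II library was 1.80 times the highest stage I library. The gap between stages II and III was small, with the lowest stage III library at 1.08 times the highest stage II library. The means were 4.29 ± 0.916, 9.78 ± 1.56 and 13.3 ± 0.666 FPKM (SD, n = 3 libraries each). These values rested on 122 to 178 reads per library at stage I, 313 to 514 at stage II and 476 to 504 at stage III.

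The other copy, c27914, had no higher mean at stage III than at stage II. Its level was 1.96, 2.29 and 1.82 FPKM in the stage I libraries. It was 7.17, 5.92 and 5.74 FPKM at stage II and 5.98, 6.46 and 6.22 FPKM at stage III. Stage I lay below both later stages, with no overlap, and stages II and III overlapped. The means were 2.02 ± 0.241, 6.28 ± 0.779 and 6.22 ± 0.240 FPKM (SD, n = 3), from 65 to 77, 194 to 302 and 202 to 236 reads per library. In every library c27914 was below c47156.

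Summed over both copies, ATVGT1 reached 6.81, 7.07 and 5.05 FPKM at stage I. It reached 18.74, 14.95 and 14.48 FPKM at stage II and 19.34, 20.32 and 18.76 FPKM at stage III. The highest stage II library and the lowest stage III library were almost equal, so the sum separated stage I from the rest but hardly stage II from stage III. The means of the sum were 6.31 ± 1.10, 16.1 ± 2.34 and 19.5 ± 0.789 FPKM (SD, n = 3).

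RPI2 was also low in the vegetative meristem, and the mean of both copies was highest at stage II, which for c33701 rested on S2_2. The level of c33701 was 1.17, 0.74 and 2.96 FPKM in S1_1, S1_2 and S1_3. It was 5.05, 9.43 and 6.01 FPKM at stage II and 6.13, 4.82 and 6.45 FPKM at stage III. S1_3 was 3.10 times the mean of the other 2 stage I libraries, and S2_2 was the highest of all 9. Stage I nevertheless stayed below every later library, whereas stages II and III overlapped. The means were 1.62 ± 1.18, 6.83 ± 2.30 and 5.80 ± 0.864 FPKM (SD, n = 3). Without S2_2 the stage II mean of c33701 was 5.53 FPKM, below that of stage III. The stage I values rested on 23, 14 and 61 reads, against 120, 215 and 115 at stage II and 117, 94 and 138 at stage III.

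The copy c51781 was more even. Its level was 1.23, 1.36 and 1.59 FPKM at stage I. It was 4.43, 6.91 and 4.58 FPKM at stage II and 4.07, 3.82 and 3.97 FPKM at stage III. Every stage III library was below every stage II library and above every stage I library, and S2_2 was again the highest. The means were 1.39 ± 0.182, 5.31 ± 1.39 and 3.95 ± 0.126 FPKM (SD, n = 3), from 31 to 42, 113 to 203 and 96 to 110 reads per library. The sum of both RPI2 copies was 2.40, 2.10 and 4.55 FPKM at stage I, 9.48, 16.34 and 10.59 FPKM at stage II and 10.20, 8.64 and 10.42 FPKM at stage III. For the sum, too, stage I lay apart and stages II and III overlapped.

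**Figure D1:**
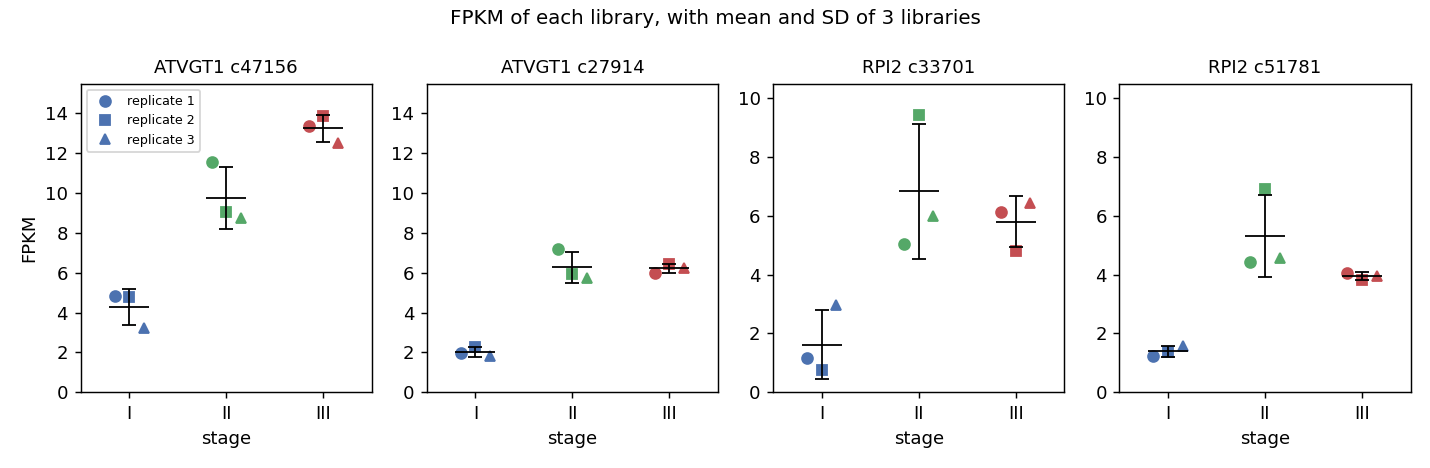
Level of the 4 transcripts in FPKM (y axis, from 0, with 1 scale for the ATVGT1 panels and another for the RPI2 panels) at stages I, II and III (x axis). Points are libraries, horizontal lines are means and bars are SDs of 3 libraries. All stage I points lie below all points of stages II and III in each panel, S1_3 is the high stage I point of c33701 at 2.96 FPKM, and S2_2 is the highest point of both RPI2 copies at 9.43 and 6.91 FPKM.

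Between the vegetative and the floral meristem, 3 of the 4 transcripts rose past the test, both ATVGT1 copies and RPI2 c51781. Differences were tested with edgeR on the counts of all transcripts, and a transcript was called when its q value (the p value after Benjamini-Hochberg adjustment over all transcripts tested) was under 0.05 and its fold change over 2. With this rule 17.5% of the 64662 transcripts tested were called between stages I and II, 9.49% as higher at stage II. The members had been chosen for their change, so nothing is read from their larger share. The level of c27914 rose by 1.49 ± 0.22 on the log2 scale (estimate ± SE, edgeR q = 0.00971, n = 3 libraries per stage). That of c47156 rose by 1.04 ± 0.23 on the log2 scale (q = 0.0273 in edgeR), which is just over the fold change asked for. RPI2 c51781 rose by 1.79 ± 0.32 on the same scale (q = 0.0157 in edgeR). In a whole bud, more cells with a transcript and more of it per cell cannot be told apart.

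RPI2 c33701 had the largest estimate of the 4 in this comparison and was not called. It stood 1.92 ± 0.59 higher at stage II on the log2 scale (edgeR q = 0.0623, 95% interval 0.30 to 3.55). Without S1_3 the estimate was 2.71 and the transcript was called (q = 0.00917 in edgeR), and over all alternatives q was 0.00917 to 0.199. DESeq2, limma and an edgeR fit of all 9 libraries called it with S1_3 included. Called in the same test were the summed ATVGT1 reads, which rose by 1.20 ± 0.21 on the log2 scale (q = 0.0144 in edgeR), and the summed RPI2 reads, which rose by 1.86 ± 0.40 (q = 0.0239 in edgeR). At the study's stricter limit, a q value of 0.001, edgeR on the 6 libraries called 0 of the 4 and 0% of all transcripts. An unadjusted p under 0.05 was reached by 4 of the 4 and by 37.0% of all transcripts tested. At the stricter limit DESeq2 called 2 of the 4 and 9.85% of its transcripts, and the edgeR fit of all 9 libraries called 1, c27914, and 2.45%. The median log2 fold change over all transcripts tested was -0.02, and that of the 4 was 1.64. All 3 stage II libraries lay above all 3 stage I libraries for 4 of the 4, as for 29.1% of all transcripts tested.

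Most of these calls rested on all 6 libraries being present. With each library left out in turn, c27914 was called in 6 of 6 fits, c51781 in 2 of 6, c33701 in 1 of 6 and c47156 in 0 of 6. Over all transcripts, calls went from 11297 to 2613, 2163 and 2339 without S2_1, S2_2 and S2_3. They were 8746, 5791 and 16979 without S1_1, S1_2 and S1_3. Loss of calls with a library left out was thus not particular to these transcripts. Without S1_3, c47156 had a log2 fold change of 0.88, under the fold change asked for. In its other 5 fits with a library left out, q was 0.0506 to 0.0822 in edgeR. The summed reads were called in 3 of 6 fits for ATVGT1 and in 1 of 6 for RPI2, the latter without S1_3 at a log2 fold change of 2.26. RPI2 c51781 kept its call only without S1_1 or without S1_3, with log2 fold changes of 1.58 to 2.01 over the 6 fits.

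From the floral meristem to the stage of floral organs, 0 of the 4 transcripts passed the test in edgeR, where 1.48% of the 64971 transcripts tested were called, 0.734% as higher at stage III. DESeq2 called 0 of the 4 and 3.55% of its transcripts. At a q value of 0.001 edgeR on the 6 libraries, edgeR on all 9 and DESeq2 each called 0 of the 4, against 0.00616%, 0% and 1.99% of all transcripts. An unadjusted p under 0.05 in edgeR was reached by 1 of the 4 and by 17.4% of all transcripts tested. That one was ATVGT1 c47156, whose q in DESeq2 was 0.0407 with a fold change under the limit, and over all alternatives 0.0407 to 0.642. In edgeR it had a log2 difference of 0.44 ± 0.12 (estimate ± SE, unadjusted p = 0.00633, q = 0.111 in edgeR). The copy c27914 differed by -0.01 ± 0.12 on the log2 scale (q = 0.987 in edgeR), with a 95% interval of -0.34 to 0.32. The RPI2 estimates were below 0, at -0.25 ± 0.29 for c33701 (q = 0.724 in edgeR) and -0.43 ± 0.23 for c51781 (q = 0.404 in edgeR). Their 95% intervals of -1.05 to 0.56 and -1.08 to 0.21 held 0. These intervals are wider than the edgeR p values imply, so their lower ends do not decide on a fold change of 2. Stage III lay wholly above stage II for c47156, as for 11.5% of all transcripts tested, and wholly below it for c51781, as for 12.5%.

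Over the whole interval from the vegetative meristem to floral organs, the same 3 transcripts were called. In this comparison 22.2% of the 65124 transcripts tested were called, 11.9% as higher at stage III. Both ATVGT1 copies rose by nearly the same amount, c47156 by 1.52 ± 0.20 (q = 0.00491 in edgeR) and c27914 by 1.51 ± 0.19 on the log2 scale (q = 0.00478 in edgeR). Both were called in 6 of 6 fits with a library left out. RPI2 c51781 rose by 1.38 ± 0.26 (q = 0.0132 in edgeR), and it lost its call without S3_1, S3_2 or S3_3, with log2 fold changes of 1.36 to 1.43. RPI2 c33701 had an estimate of 1.67 ± 0.56 (q = 0.0702 in edgeR), and of the 6 fits with a library left out only the one without S1_3 called it, at 2.45 (q = 0.00321 in edgeR). Over all alternatives its q was 0.00321 to 0.186, and DESeq2, limma and the edgeR fit of all 9 libraries called it. The summed ATVGT1 reads rose by 1.51 ± 0.17 (q = 0.00361 in edgeR) and the summed RPI2 reads by 1.53 ± 0.35 on the log2 scale (q = 0.0238 in edgeR). Of these, the RPI2 sum was called in 1 of 6 fits with a library left out, again the one without S1_3, at 1.91. Over all transcripts, calls went from 14489 to 6309, 6620 and 5577 without S3_1, S3_2 and S3_3. They were 12876, 10748 and 21010 without S1_1, S1_2 and S1_3. All 3 stage III libraries lay above all 3 stage I libraries for 4 of the 4, as for 31.2% of all transcripts tested. At a q value of 0.001 edgeR on the 6 libraries called 0 of the 4 and 0.00614% of all transcripts. An unadjusted p under 0.05 was reached by 4 of the 4 and by 40.7% of all transcripts tested. At the stricter limit DESeq2 called 3 of the 4 and 12.5% of its transcripts, and edgeR on all 9 libraries called both ATVGT1 copies and 4.24%.

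**Figure D2:**
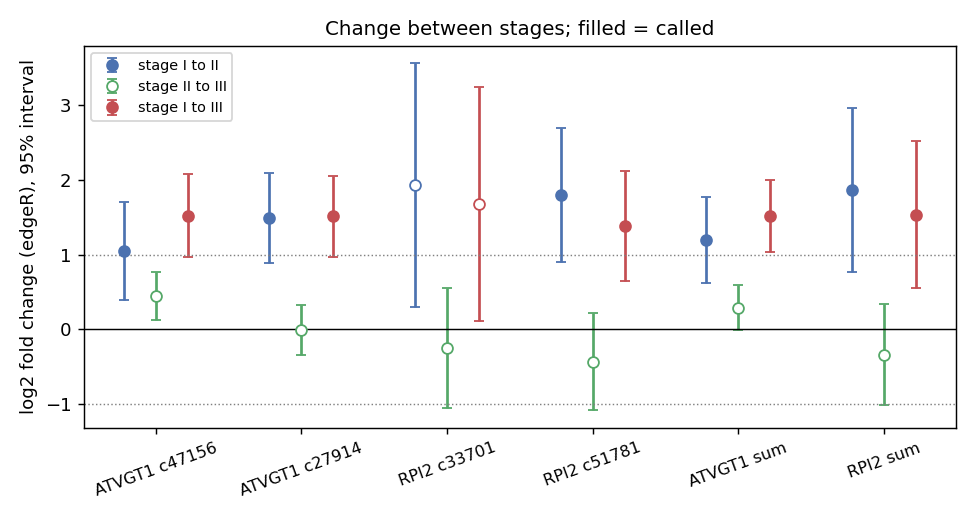
Log2 fold change in edgeR (y axis) of the 4 transcripts and of the summed copies of each gene (x axis) for the 3 pairs of stages, with 95% intervals. The intervals are wider than the edgeR p values imply, as they take fewer degrees of freedom. Filled points were called, open points were not, and dotted lines mark a fold change of 2 in either direction. The changes from stage I to II run from 1.04 to 1.92, those from stage II to III from -0.43 to 0.44, and c33701 is open in all 3 comparisons with the widest interval in each.

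Of the 4 transcripts, only c47156 had a higher mean at stage III than at stage II. On the FPKM scale, c47156 had covered 72.8% of its log2 difference between stages I and III by stage II, and c27914 had covered 100%. For RPI2 the share was 109% for c33701 and 126% for c51781, because their stage II means were above those at stage III. For c33701 the order of these means turned without S2_2, where the edgeR estimate from stage II to III was 0.11 instead of -0.25. The summed FPKM gave 82.5% for ATVGT1 and 116% for RPI2. Neither gene had a called difference after stage II, and a difference in timing between the genes was not tested. FPKM differences between stages I and II exceeded those after TMM scaling, a correction for library composition, by 0.15 (log2, median of all transcripts) and by 0.14 to 0.15 for the 4 members. The order of neighbouring stage means was the same in both scalings in 8 of 8 cases.

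The copies of ATVGT1 kept their order, and their ratio varied between libraries. The level of c47156 was 2.47, 2.09 and 1.77 times that of c27914 in the stage I libraries. It was 1.61, 1.53 and 1.52 times at stage II and 2.23, 2.15 and 2.02 times at stage III. The stage II ratios were thus below all others, and those of stages I and III overlapped. With 1 added to each FPKM the difference between stages I and II shrank to -0.23 on the log2 scale (exact permutation test, p = 0.2), from -0.43 without it. As a share of the summed FPKM, c47156 held 67.6 ± 3.63%, 60.8 ± 0.785% and 68.0 ± 1.13% (SD, n = 3). The mean log2 ratio differed by -0.43 between stages I and II (exact permutation test, two-sided, p = 0.1, adjusted over 6 tests 0.3). It differed by 0.46 between stages II and III (exact permutation test, p = 0.1, adjusted 0.3) and by 0.03 between stages I and III (p = 0.9, adjusted 0.9). This exact test of 3 libraries against 3 cannot give a p below 0.1. The counts of both copies were fractional, and the part of the division of reads in these ratios was not tested.

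The copies of RPI2 were near each other in level. The level of c33701 was 0.951, 0.544 and 1.86 times that of c51781 in S1_1, S1_2 and S1_3. At stage II the ratios were 1.14, 1.36 and 1.31, and at stage III 1.51, 1.26 and 1.62. At stage I the copies changed order between libraries, while c33701 was the higher in all 6 later ones. The share of c33701 in the summed FPKM was 49.7 ± 14.9%, 55.9 ± 2.34% and 59.3 ± 3.14% (SD, n = 3). Differences of the mean log2 ratio were 0.36 between stages I and II (exact permutation test, p = 0.6, adjusted 0.72) and 0.20 between stages II and III (p = 0.3, adjusted 0.6). Between stages I and III the difference was 0.56 (exact permutation test, p = 0.4, adjusted 0.6). Without S1_3 the differences from stage I were 0.82 to stage II and 1.02 to stage III (exact permutation test, p = 0.1 each). That p is the lowest this test can give with a stage I library left out. Without S1_2 these differences were -0.07 and 0.13.

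Few reads lay behind the uneven ratios of RPI2 at stage I. The share of the reads of both copies on c33701 was 42.6% in S1_1 (95% Wilson interval 30.3 to 55.8%), 29.8% in S1_2 (18.7 to 44.0%) and 59.2% in S1_3 (49.6 to 68.2%). The intervals of S1_2 and S1_3 did not overlap, and those of S1_1 overlapped both. They cover counting error alone, since reads copied by PCR are not independent molecules.

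**Figure D3:**
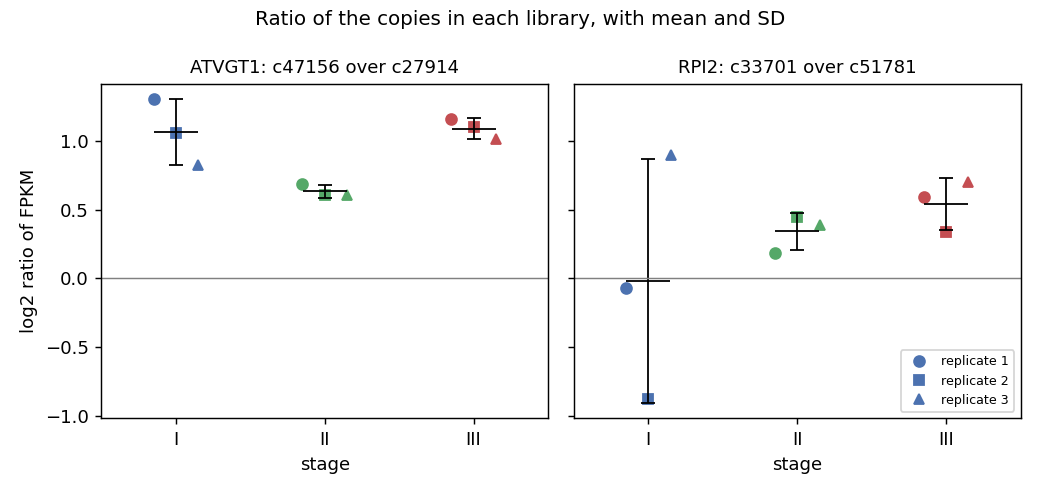
Log2 ratio of the FPKM of the copies (y axis) for ATVGT1 (c47156 over c27914) and RPI2 (c33701 over c51781) at each stage (x axis). Points are libraries, horizontal lines are means and bars are SDs of 3 libraries. The ATVGT1 ratio is lowest at stage II, with a mean of 0.64 against 1.07 and 1.09, and the RPI2 ratio has its widest spread at stage I, with an SD of 0.89.

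Within a stage, both RPI2 copies were on the same side of their stage means in 9 of 9 libraries, and both ATVGT1 copies in 6 of 9. This is a description of sides alone, since the deviations of 3 libraries from their mean are not independent and the sizes differed between the copies. In S1_3, the library with the shorter fragments, the genes went opposite ways relative to the other 2 stage I libraries. There c47156 was at 0.671 and c27914 at 0.856 of their mean, whereas c33701 was at 3.10 and c51781 at 1.23 times it. The part of the fragment length in these values was not tested.

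Spread between libraries was widest for RPI2 c33701. Its coefficient of variation of FPKM was 72.5% at stage I, 33.7% at stage II and 14.9% at stage III, where counting error alone would give 17.5%, 8.16% and 9.27%. The median over all transcripts with a mean of at least 1 FPKM was 31.6%, 16.9% and 13.5%. At stage I, 12.4% of those transcripts varied more than c33701. The copy c51781 varied by 13.1%, 26.2% and 3.18%, with only its stage II value above the median of all transcripts and above its counting error of 8.15%. S2_2 was the high stage II library of both RPI2 copies, and without it their stage II means were 5.53 and 4.51 FPKM.

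Both ATVGT1 copies varied less than RPI2 c33701 at every stage. Against RPI2 c51781, at 13.1%, 26.2% and 3.18%, both varied less at stage II only. The coefficient of variation was 21.4%, 15.9% and 5.03% for c47156 and 11.9%, 12.4% and 3.86% for c27914 at stages I, II and III. All 6 values were below the median of all transcripts at their stage. For c27914 the spread at stages I and III was no wider than its counting error of 12.0% and 6.74%. At stage III the 3 libraries of each ATVGT1 copy and of c51781 lay within 1.11 times of one another.

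**Figure D4:**
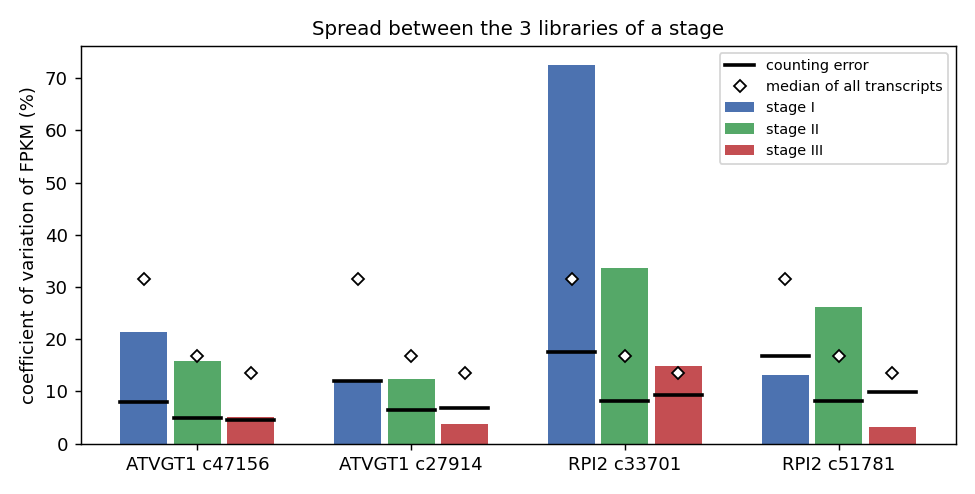
Coefficient of variation of FPKM between the 3 libraries of a stage in percent (y axis, from 0) for the 4 transcripts (x axis), with 1 bar per stage. Black lines mark the value that counting error alone would give and diamonds the median of all transcripts with a mean of at least 1 FPKM. The bar of c33701 at stage I reaches 72.5% against 17.5% from counting, and the stage III bar is the lowest of each transcript, with c33701 at 14.9% the one above the median of 13.5%.

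The levels of the genes relative to each other, per length, varied between libraries, and the ranges of the stages overlapped. Summed ATVGT1 was 2.84, 3.37 and 1.11 times summed RPI2 in FPKM in the stage I libraries. It was 1.98, 0.915 and 1.37 times at stage II and 1.90, 2.35 and 1.80 times at stage III. S2_2 was the one library in which RPI2 exceeded ATVGT1, and S1_3 came next. These ratios were not tested.

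To describe how alike the courses were, each transcript was centred on its mean log2(FPKM + 1) over the 9 libraries, and the root mean square difference from every other transcript was taken. The libraries are shared by all transcripts, so this is a description. The copies of ATVGT1 were 0.20 apart on the log2 scale. Of 54884 other transcripts, 0.700% were nearer to c47156 and 1.69% were nearer to c27914 than the other copy. The copies of RPI2 were 0.32 apart, with 0.548% of transcripts nearer to c33701 and 4.59% nearer to c51781. That distance was 0.46 on log2 CPM and 0.49 on log2(FPKM + 0.01), and on both scales ATH1 c9324 came ahead of c33701 in the order of neighbours of c51781. The median difference from all other transcripts was 0.64 to 0.84 for the 4.

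On the study's list the other copy was the nearest of 25 transcripts for c47156, c27914 and c33701. For c51781 the nearest was ATVGT1 c27914 at 0.25, ahead of the other RPI2 copy at 0.32. The order of these neighbours turned when S1_2 was left out, which put c33701 first at 0.21, and without S2_2 c51781 rather than c47156 was nearest to c27914, at 0.16. Next to c47156 came UBC1 c213752, a ubiquitin-conjugating enzyme, at 0.32 and UFO c10259, an F-box protein of floral meristems, at 0.33. Next to c27914 came RPI2 c51781 at 0.25 and ATH1 c9324, a homeodomain protein, at 0.29. For c33701 the next were ATVGT1 c27914 at 0.45 and SEF c22315, a subunit of a chromatin remodelling complex, at 0.52. For c51781 the third was ATH1 c9324 at 0.33.

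The other 22 transcripts on the study's list give the setting of these values. Of them 18 were tested between stages I and II, where 7 rose and 3 fell, with a median log2 fold change of 1.26. Between stages II and III 21 were tested, and 2 rose and 0 fell, with a median of 0.94. Between stages I and III 21 were tested, of which 11 rose and 3 fell, with a median of 3.01. The corresponding medians of the 4 sugar transcripts were 1.64, -0.13 and 1.51, and those over all transcripts were -0.02, -0.01 and 0.02. Of all transcripts tested, 17.5%, 1.48% and 22.2% were called in these 3 comparisons, and 9.49%, 0.734% and 11.9% as higher at the later stage. The study had chosen the whole list on these libraries, and the lists were not tested against each other.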

How the data were processed

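Total RNA of the buds was enriched for poly(A) RNA with oligo(dT) beads, and the libraries were amplified by PCR and sequenced as paired reads. Reads that passed ng_QC were aligned by the authors with Bowtie2 to the polished consensus of their long reads. For each library they deposited expected counts from RSEM, without normalization, together with FPKM, which corrects for transcript length and sequencing depth. No genome was used. The deposited tables hold more transcripts than the non-redundant set that the study describes, and all of them were used. RSEM divides reads between similar transcripts, which can move counts from one copy to the other.

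The expected counts were rounded to whole numbers. The members, lists and tests were chosen with earlier results of these data known. Each pair of stages was fitted on its 6 libraries over all transcripts with edgeR 4.0.16 (quasi-likelihood test, filterByExpr with a minimum count of 10 and a minimum total of 15, TMM) in R 4.3.3. The SE was the log2 fold change divided by the root of the F statistic. A q value under 0.05 and a fold change over 2 made a call. The study's own limit was a q value of 0.001, which edgeR on 6 libraries, with the fold change, reached for 0, 4 and 4 of all transcripts. Added to the table were 2 rows with the summed counts of the copies. Alternatives were DESeq2 1.42.0, RLE factors, no filter, a replicate block, all 9 libraries in 1 fit, limma 3.58.1 on log2(FPKM + 1) and log2(FPKM + 0.01), other thresholds, and each library left out. Copy ratios were compared with exact permutation tests written in NumPy 2.4.6. SciPy 1.17.1 gave the Wilson intervals and was used to check the test code on random values. Named neighbours were the 3 nearest to each member among the other 25 transcripts on the study's list. Likeness was taken over transcripts with at least 1 FPKM in at least 3 libraries. Sample numbers did not pair the libraries (correlation of deviations of same-numbered libraries -0.20 to 0.12).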

Additional observations from a re-analysis of the deposited data

How the results depend on the processing

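Among the 4 transcripts and the summed copies, calls depended mostly on the q threshold, the block and the number of libraries. At a q value of 0.001 every call of the edgeR fit of each pair of stages was lost, at unchanged log2 fold changes from stage I to II (c47156 1.0447, c27914 1.4882, c51781 1.7947, ATVGT1 sum 1.1965, RPI2 sum 1.8596) and from stage I to III (1.5183, 1.5073, 1.3802, 1.5147 and 1.5309), and of all transcripts 0, 4 and 4 were called in the comparisons I to II, II to III and I to III.

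Same-numbered libraries did not deviate together in every pair, so the replicate numbers are only names. With the replicate number as a block, calls were lost from stage I to II for c47156 (1.0612), c27914 (1.4906), c51781 (1.7612), the ATVGT1 sum (1.2059) and the RPI2 sum (1.8746), and from stage I to III for c51781 (1.3921). The block, which leaves fewer degrees of freedom, called 0, 5 and 7718 of all transcripts, against 11297, 960 and 14489 without it.

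RPI2 c33701 gained a call from stage I to II with DESeq2 (1.93), all 9 libraries in 1 fit (1.9204), limma on log2(FPKM + 1) with and without a filter (1.6289 and 1.6289) and limma on log2(FPKM + 0.01) (2.2578). From stage I to III the values were 1.6624, 1.6762, 1.4566, 1.4566 and 2.0625. The cause was not tested. Between stages II and III the count of all transcripts called was 1948 with DESeq2, 6 with all 9 libraries and 532 with limma and no filter.

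With each library left out, log2 fold changes from stage I to II were 0.8848 to 1.1856 (c47156), 1.574 to 2.7112 (c33701), 1.5755 to 2.0142 (c51781), 1.0685 to 1.3316 (ATVGT1 sum) and 1.595 to 2.2646 (RPI2 sum). From stage I to III they were 1.2899 to 2.4484 (c33701), 1.2529 to 1.4727 (c51781) and 1.297 to 1.9128 (RPI2 sum). Between stages II and III the sign turned for c27914 (-0.0585 to 0.066) and c33701 (-0.4478 to 0.1071), which were not called. Counts of all transcripts called were 2163 to 16979, 43 to 925 and 5577 to 21010, the highest of the first without S1_3. The log2 copy ratio turned in sign for ATVGT1 between stages I and III (-0.0935 to 0.1462) and for RPI2 between stages I and II (-0.069 to 0.8183). At stage I c33701 had 14 to 61 reads, and its spread between libraries (72.5%) was wider than counting error alone would give (17.5%).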
